A study of Mus musculus with 13 samples.

Results

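The comparison described here sets skeletal muscle of miR-181a2b2 knockout (KO) mice against that of flox controls, both fed a diet labelled HFSC, and uses 7 of the 13 samples of the series. The members were taken from the genotype and diet labels: 3 HFSC KO samples (replicates 2, 3 and 4) and 4 HFSC flox samples (replicates 1 to 4). Flox samples were labelled homozygous for a floxed miR-181a2b2 locus and carried no other labelled allele, and KO samples were labelled systemic knockouts of that locus. The labels do not spell out HFSC, and they give no age, sex, Cre driver or feeding time. The series as a whole concerns hindlimb ischemia, but no sample label says which limb was taken or when. The extraction protocol names white adipose tissue where the source label is skeletal muscle. No label states that each sample came from its own animal, so every p-value below measures the spread between samples, part of which may be technical. The main fit took that spread from all 13 samples of the series, chow included.

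MicroRNAs of the miR-181 family pair through bases 2 to 8 of their mature strand, the seed, with matching sites in the 3′ untranslated regions (UTRs) of messenger RNAs and lower the output of those messages. The family is studied in lymphocyte development, in blood cell formation, in endothelial inflammation and in the control of mitochondrial genes. In muscle tissue the RNA of fibres is mixed with that of endothelium, smooth muscle, fat, connective tissue and blood. In such bulk samples, fewer cells of a type and less RNA per cell cannot be told apart.

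The deleted locus lies on chromosome 2 (GRCm38), with Mir181a-2 at 38852735 to 38852810 and Mir181b-2 at 38853830 to 38853918, both on the plus strand and inside the Nr6a1 gene region. Its 2 main mature products are shown because their seed, in capitals, defines the target sites counted further on (sequences from RefSeq, GRCm38.p6):
mmu-miR-181a-5p: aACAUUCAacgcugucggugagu
mmu-miR-181b-5p: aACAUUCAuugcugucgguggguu
Counted from the 5′ end, miR-181b-5p differs from miR-181a-5p by A9U, C10U and A21G and is 1 base longer. The same mature strands are also made from Mir181a-1 and Mir181b-1 on chromosome 1, outside the deletion. The strands miR-181c-5p and miR-181d-5p share the seed, so 4 mature names carry it in all:
mmu-miR-181c-5p: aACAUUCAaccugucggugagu
mmu-miR-181d-5p: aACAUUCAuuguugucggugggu
The libraries were polyA-selected messenger RNA, and the counts do not check the genotype. Mir181a-2 had 1, 0, 0 and 0 reads in HFSC flox replicates 1 to 4 and 0 reads in each HFSC KO library, and Mir181b-2 had 0 reads in every library. None of these counts exceeds the floor of 3.

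Total counts of the 7 libraries ran from 20830943 to 45710227, both in the flox group, and 3 counts corresponded to 0.0656 to 0.144 CPM. CPM is a count scaled to a common library total, here after the trimmed mean of M values (TMM), and it takes no account of gene length. The muscle genes Acta1 and Ckm were at 19441 to 25206 and 14018 to 20397 CPM over the 7 libraries, and the adipocyte genes Adipoq and Plin1 at 7.24 to 30.7 and 7.599 to 28.5 CPM. The first principal component of the 7 libraries held 32.1% of the variance, with flox libraries from -47.5 to 7.43 and KO libraries from 19.2 to 30.6. HFSC flox replicate 4 went with the KO libraries for mt-Nd3 and the neighbouring mitochondrial mt-Tg and mt-Tr, as described near the end. It went with its own group for the 3 called genes, but these were called with it counted as flox, so they cannot check its label. The counts do not check its genotype, and whether this library carries the right label was not tested. It is 1 of the 4 controls in every value below. Without it the log2 fold changes of Hspa12b, Hba-a1 and Myh6 were 0.70, 1.14 and 1.94 (adjusted p = 0.0428 for each, edgeR's quasi-likelihood test). The medians of the arterial, globin, nuclear-encoded respiratory chain and adipocyte lists were 0.37, 1.02, 0.25 and 0.66 without it, and that of the immediate early list was -0.06.

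Expression was tested for 16496 genes. In HFSC KO muscle, 3 genes rose and none fell (edgeR's quasi-likelihood test, Benjamini-Hochberg adjusted p of 0.0347 for each), which is 0.0182% of genes tested. They were Hspa12b, an atypical heat shock protein of the Hsp70 family expressed in endothelium, Hba-a1, an adult alpha-globin, and Myh6, the alpha myosin heavy chain of the heart. At an unadjusted p under 0.05 there were 949 higher genes (5.75%) and 772 lower genes (4.68%). DESeq2 called 105 higher and 60 lower, and limma voom with sample quality weights called 31 higher and 2 lower, with all 3 genes among the calls of both. Over all genes tested, log2 fold changes (KO minus flox) had a median of 0.0035 and quartiles of -0.18 and 0.17, and 50.6% of genes were positive. The libraries of the groups did not overlap, with KO higher, for 1221 genes (7.4%) and, with KO lower, for 876 genes (5.31%). These shares are the background for the counts of gene groups given below.

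The calls were few enough that single libraries decided them. Without HFSC flox replicate 4 there were 12 calls, 7 higher and 5 lower, and without chow flox replicate 4 there were 20, 18 higher and 2 lower, and all 3 genes were kept in both. Leaving out HFSC KO replicate 2 kept 2 of the 3 (8 calls in all), and leaving out chow KO replicate 2 or HFSC flox replicate 1 kept 1. Leaving out any of the other 8 libraries kept 0 of the 3, and without HFSC KO replicate 4 the smallest adjusted p of any gene was 0.261. No gene was called with library totals as the scale, with only the HFSC groups in the fit or with a replicate block, where the smallest adjusted p-values were 0.0738, 0.0591 and 0.0653. Over the 20 alternatives run, the log2 fold change of Hspa12b stayed between 0.65 and 0.76, that of Hba-a1 between 1.13 and 1.32 and that of Myh6 between 1.91 and 2.40.

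**Figure D1:**
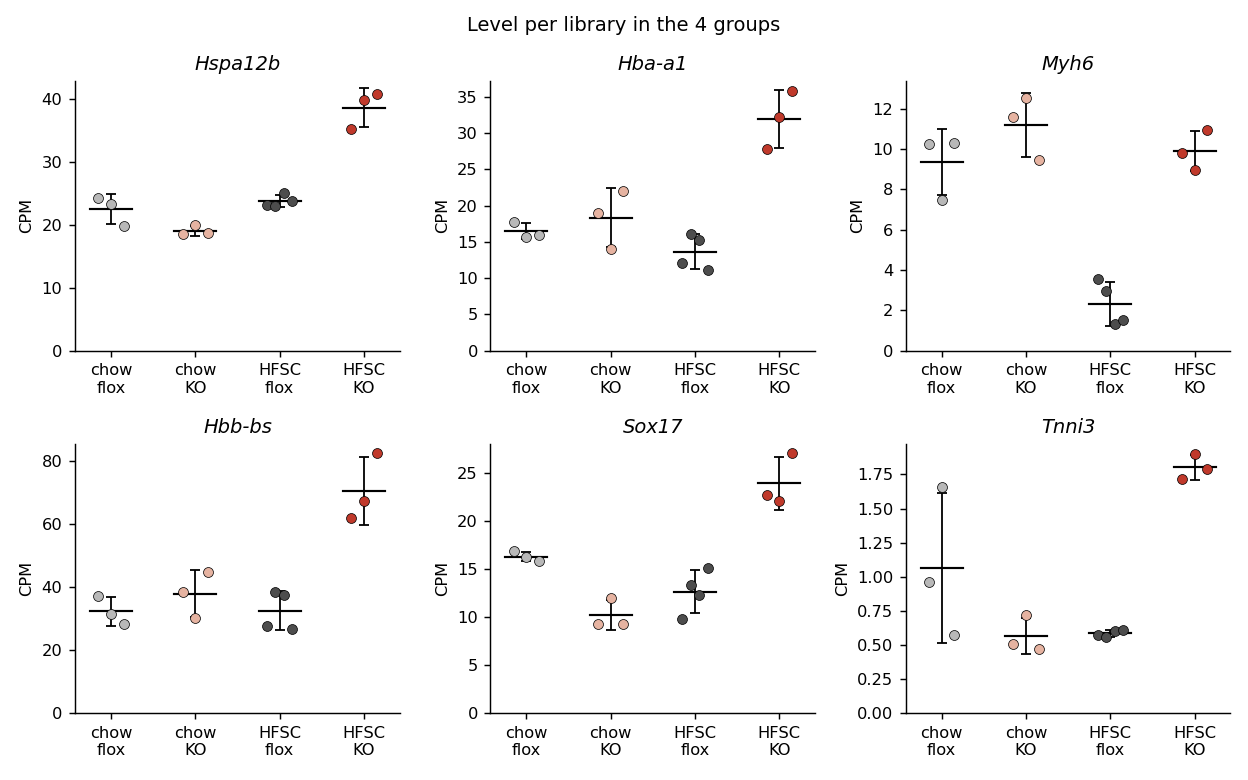
CPM (linear axis from 0) of 6 genes in the 13 libraries, by group; points are libraries, horizontal bars the group mean and error bars the SD. For Hspa12b, Hba-a1, Hbb-bs and Sox17 the 3 HFSC KO libraries lie above all others, whereas for Myh6 the 4 HFSC flox libraries, at 1.32 to 3.55 CPM, lie below all others.

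Hspa12b (chromosome 2, 131127280 to 131146321) was at 23.2, 23.0, 25.1 and 23.8 CPM in HFSC flox replicates 1 to 4 and at 35.1, 39.9 and 40.8 CPM in HFSC KO replicates 2 to 4. The flox values lay within a narrow band and all 3 KO values were above it. The means were 23.8 ± 0.943 (SD, n = 4) and 38.6 ± 3.04 (SD, n = 3), a log2 fold change of 0.70 ± 0.09 (SE). On chow the gene was at 22.4 ± 2.37 CPM in flox and 19.0 ± 0.765 CPM in KO (SD, n = 3 each), so the HFSC KO libraries were above all 10 others.

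Among the vascular groups, genes of arterial endothelium had the highest median. Of 15 arterial genes tested, none passed the test, but 6 had KO libraries all above the flox libraries and none had them all below. The median log2 fold change of the arterial genes was 0.46, and over the alternatives it ranged from 0.37 to 0.54. Sox17, a transcription factor of arterial identity, was at 9.83, 13.4, 12.3 and 15.2 CPM in flox and 22.7, 22.1 and 27.1 CPM in KO. Its groups were well separated, with a log2 fold change of 0.92 ± 0.14 (SE) and an adjusted p of 0.0678. Sox17 was called in 5 of the 20 alternatives, among them the fit without HFSC flox replicate 4. Hey1, a target of Notch signalling, was at 3.31, 3.70, 5.11 and 3.93 CPM in flox and 6.34, 7.11 and 11.5 CPM in KO (log2 fold change 1.05, adjusted p = 0.132). Notch4, a Notch receptor of endothelium, was at 17.2 to 29.1 CPM in flox and 35.0 to 37.9 CPM in KO. The semaphorin Sema3g, the gap junction gene Gja4 and the Notch ligand Jag2 were the other three without overlap, with log2 fold changes of 0.47, 0.86 and 0.21.

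The broader endothelial list, with genes of capillaries, gave 10 of 32 without overlap and higher in KO, none lower, and a median of 0.27. Sox18, a partner of Sox17 in vessel development, was at 9.39, 12.6, 11.3 and 10.01 CPM in flox and 16.7, 29.0 and 22.2 CPM in KO (log2 fold change 1.07, adjusted p = 0.226). Gpihbp1, which carries lipoprotein lipase to the capillary wall, was at 20.8 to 34.2 CPM in flox and 43.0 to 54.9 CPM in KO. Both genes separated the groups without passing the test. Ramp2, a subunit of the adrenomedullin receptor, and Car4, a carbonic anhydrase of the capillary surface, differed by 0.55 and 0.83 on the log2 scale. Widely used endothelial markers differed less: Pecam1 was at 77.7 to 116 CPM in flox and 112 to 134 CPM in KO, and Cdh5 at 95.2 to 166 and 140 to 164 CPM. The summed level of the 32 genes was 1033 to 1401 CPM in flox and 1381 to 1601 CPM in KO, so the sums overlapped. Of the 12 venous and lymphatic genes, 0 were higher and 1 lower without overlap, and of 18 smooth muscle and pericyte genes likewise 0 and 1, with medians of 0.06 in each. Whether the arterial values reflect more arterial cells or more RNA per cell was not tested.

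Angiogenic ligands and receptors showed no common direction. Fgf2, basic fibroblast growth factor, was at 8.54, 9.68, 7.66 and 7.39 CPM in flox and 6.12, 5.87 and 5.72 CPM in KO, a log2 fold change of -0.49 with an adjusted p of 0.261. Its values did not overlap, and its 3′ UTR held 4 copies of the 7-base miR-181 site. Vegfa, the main growth factor of endothelium, was at 220 to 277 CPM in flox and 205 to 289 CPM in KO. Pdgfb, which recruits pericytes, was higher without overlap (log2 fold change 0.43), and Vegfc, a lymphatic growth factor, lower (-0.57). The receptors Tie1 and Flt1 were higher without overlap (0.43 and 0.28), whereas Kdr, the principal VEGF receptor, overlapped at -0.41. Among 18 genes of vascular tone, none separated the groups. Nos3, endothelial nitric oxide synthase, was at 14.5 to 17.3 CPM in flox and 15.7 to 23.8 CPM in KO.

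Cxcr4, the chemokine receptor named in the title of the series, was at 4.86, 3.95, 6.81 and 4.92 CPM in flox and 7.12, 7.83 and 11.4 CPM in KO. The groups did not overlap, although HFSC flox replicate 3 came close to the lowest KO library, and the log2 fold change of 0.77 ± 0.44 (SE) had an adjusted p of 0.579. Its ligand Cxcl12 was at 85.5 to 96.7 CPM in flox and 59.0 to 88.0 CPM in KO, and the scavenger receptor Ackr3 at 24.3 to 30.8 and 13.2 to 29.5 CPM. Both overlapped, with log2 fold changes of -0.34 and -0.31.

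The 4 adult globin genes that could be tested had higher counts in all 3 KO libraries than in any flox library of the diet. Globin transcripts in muscle come mainly from red blood cells and reticulocytes held in vessels. Hba-a1 (chromosome 11, 32283511 to 32284465) was at 12.1, 16.1, 15.3 and 11.1 CPM in flox and 27.9, 32.3 and 35.8 CPM in KO, with means of 13.6 ± 2.40 (SD, n = 4) and 31.99 ± 3.96 (SD, n = 3). Its log2 fold change of 1.23 ± 0.16 (SE) passed the test. The beta-globin Hbb-bs was at 27.6, 38.5, 37.4 and 26.7 CPM in flox and 61.7, 67.3 and 82.5 CPM in KO, a log2 fold change of 1.12 with an adjusted p of 0.0678. Hba-a2 was at 4.46, 6.33, 6.59 and 4.39 CPM in flox and 8.20, 11.2 and 11.7 CPM in KO (0.93, adjusted p = 0.132). Hbb-bt was at 3.65, 5.07, 5.33 and 3.57 CPM in flox and 7.91, 9.05 and 11.3 CPM in KO (1.1, adjusted p = 0.163). Within the flox group all 4 genes were lower in replicates 1 and 4 than in replicates 2 and 3. Hba-a1 and Hba-a2 are near-identical copies, so how reads were split between them is uncertain. The summed level of the 4 globins was 45.8 to 65.9 CPM in flox and 106 to 141 CPM in KO. On chow, KO and flox differed by a log2 fold change of 0.12 to 0.23 for the 4 genes.

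Other red cell genes were mostly too low to test. Alas2, the erythroid enzyme that starts haem synthesis, was at 1.79, 3.44, 2.72 and 1.86 CPM in flox and 3.72, 4.49 and 5.64 CPM in KO. It separated the groups with a log2 fold change of 0.93 and an adjusted p of 0.275. Among 12 genes of haem synthesis and iron, 3 were higher without overlap and none lower. Slc4a1, the anion exchanger of the red cell membrane, had 0, 1, 3 and 1 reads in flox and 0, 4 and 7 reads in KO. The embryonic globins Hba-x and Hbb-y had 0 reads in all 7 libraries. The part of retained blood in the globin values was not tested.

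The promoters of the alpha- and beta-globin genes are shown because all 4 globin genes separated the groups, and the alpha and beta genes lie on different chromosomes. Each run is 250 bases before to 50 bases after the RefSeq start (GRCm38.p6), 5′ to 3′ on the strand of the gene. Capitals mark 4 motifs known from globin promoters, searched on either strand. The first is the box with the letters CCAAT. Another, bound by Krüppel-like factors, is written as CACCC in these searches. Sites of GATA factors were searched as GATAA without any further flanking letters. The TATA-like box of globin genes was searched with the letters CATATAA. In these runs no match overlaps another. Hba-a1 is at chr11:32283422-32283721, plus strand, and Hbb-bs at chr7:103827879-103828178, minus strand:
Hba-a1: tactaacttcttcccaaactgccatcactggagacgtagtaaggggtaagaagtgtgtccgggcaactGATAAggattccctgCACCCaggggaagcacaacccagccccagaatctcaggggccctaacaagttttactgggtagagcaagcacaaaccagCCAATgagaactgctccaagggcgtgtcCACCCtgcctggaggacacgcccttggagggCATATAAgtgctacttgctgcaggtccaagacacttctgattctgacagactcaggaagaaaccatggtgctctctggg
Hbb-bs: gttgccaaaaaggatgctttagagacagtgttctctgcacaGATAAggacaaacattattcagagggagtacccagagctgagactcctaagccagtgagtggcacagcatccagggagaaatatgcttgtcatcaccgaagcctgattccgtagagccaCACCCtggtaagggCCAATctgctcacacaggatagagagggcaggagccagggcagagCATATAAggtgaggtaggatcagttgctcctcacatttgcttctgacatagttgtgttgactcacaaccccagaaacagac
Both hold all 4 motifs, as does Hba-a2, whereas Hbb-bt holds the other three and has 0 matches to the TATA-like box as searched. CCAAT starts 88 bases before the start of Hba-a1 and 76 before that of Hbb-bs, and CATATAA 29 and 31 bases before. Of 32841 RefSeq promoters of this length, 37.4% hold the first of these motifs and 57.5% the second. The GATA-type match is found in 25.4% of them, and the TATA-like box in 2.31%. The matches describe these letters only.

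Myh6 (chromosome 14, 54941921 to 54966927) was at 3.55, 2.94, 1.32 and 1.52 CPM in HFSC flox and at 9.81, 8.95 and 10.9 CPM in HFSC KO. The means were 2.33 ± 1.08 (SD, n = 4) and 9.90 ± 0.995 (SD, n = 3), a log2 fold change of 2.11 ± 0.29 (SE). The chow libraries were at 9.34 ± 1.63 CPM in flox and 11.2 ± 1.59 CPM in KO (SD, n = 3 each), so the HFSC KO level lay among the chow levels and the HFSC flox level lay below them. Tnni3, the cardiac troponin I, was at 0.574, 0.557, 0.604 and 0.612 CPM in HFSC flox and 1.72, 1.90 and 1.79 CPM in HFSC KO. It separated the groups (log2 fold change 1.61, adjusted p = 0.132) at a low level of 11 to 58 reads per library.

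Some other genes of cardiac muscle had more reads in KO. Mybpc3, the cardiac myosin binding protein, was at 0.169, 0.659, 0.247 and 0.148 CPM in flox and 1.97, 1.41 and 2.001 CPM in KO (log2 fold change 2.67, adjusted p = 0.184). The natriuretic peptide genes were too low to test: Nppa had 3, 2, 3 and 3 reads in flox and 11, 7 and 9 in KO, and Nppb 1, 2, 0 and 1 in flox and 3, 9 and 14 in KO. Myl7, the atrial myosin light chain, had 0 reads in every library. Slow-fibre genes, which cardiac muscle shares, mostly overlapped between the groups: Myh7, the slow myosin heavy chain, was at 548, 239, 169 and 163 CPM in flox and 157, 225 and 106 CPM in KO. Of 20 slow-fibre and cardiac-type genes tested, Myh6 and Tnni3 were without overlap, and the list median of 0.17 was -0.37 without HFSC KO replicate 3. None of 15 fast-fibre genes separated the groups, with a median of 0.10.

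**Figure D2:**
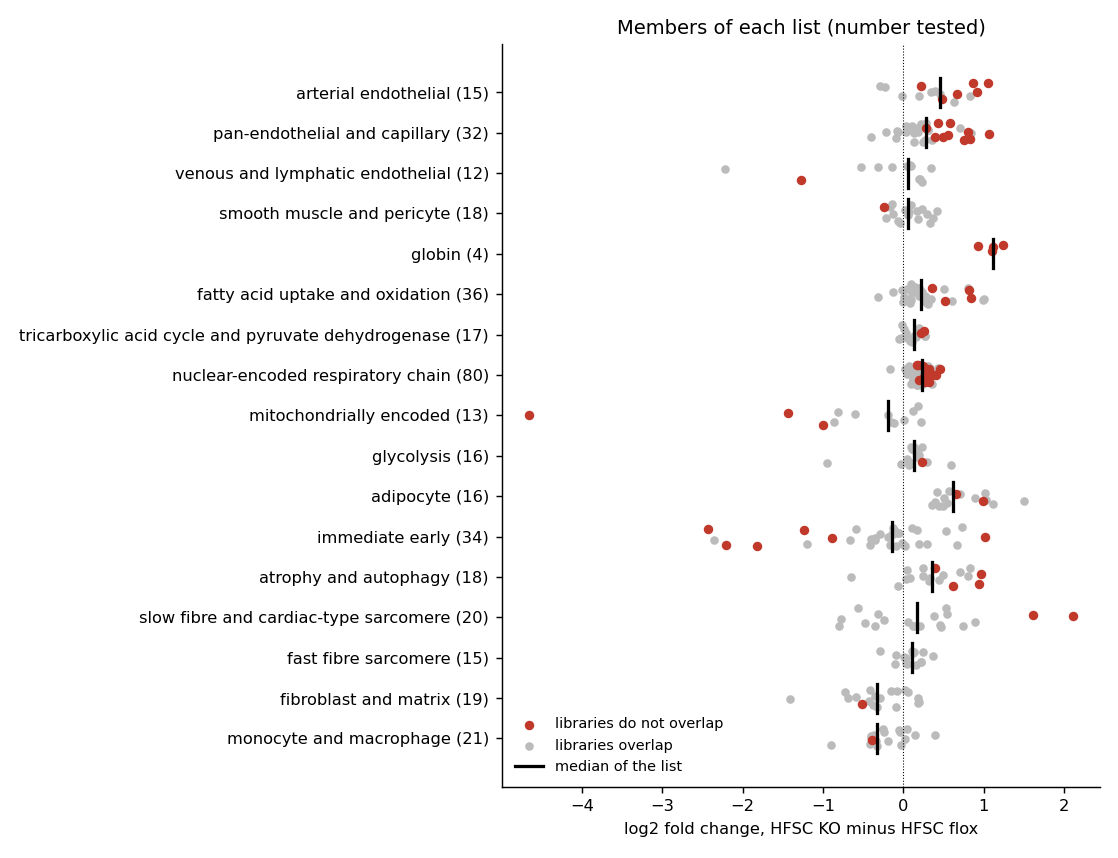
Log2 fold change, HFSC KO minus HFSC flox, of each tested member of 17 gene lists (number tested in parentheses); red points are genes whose libraries do not overlap between the groups, grey points genes that overlap, and black ticks the list medians. The arterial, globin, respiratory chain and adipocyte medians lie at 0.46, 1.11, 0.23 and 0.61, and the far left point of the mitochondrially encoded list is mt-Nd3 at -4.66.

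Most nuclear-encoded genes of oxidative metabolism had small positive log2 fold changes, and none of them passed the test. The 13 mitochondrially encoded genes, described near the end, had a median of -0.19, with 9 negative and 4 positive. The negative ones included mt-Nd3, mt-Nd4l, mt-Co2, mt-Co3 and mt-Atp6, which have identical or near-identical copies on chromosome 1 and low, uncertain counts. The low-count mt-Atp8 was at -0.81. Among the high-count genes, mt-Co1, mt-Cytb, mt-Nd4 and mt-Nd1 were positive (0.22, 0.19, 0.12 and 0.01). The high-count mt-Nd5, mt-Nd6 and mt-Nd2 were negative (-0.12, -0.15 and -0.19). Of 80 nuclear-encoded respiratory chain genes, 79 had a positive log2 fold change against 50.6% of all genes, 21 were higher without overlap against 7.4%, and none was lower. Their median was 0.23, with a range of 0.15 to 0.31 over the alternatives. The summed level of the 80 genes was 21379 to 25137 CPM in flox and 24629 to 28889 CPM in KO, so the sums overlapped. The median log2 level of the members, relative to the mean of the HFSC libraries, was -0.04 in KO replicate 3. In flox it was -0.18 to -0.02. These genes are co-regulated, so their count is not a count of independent events. Ndufs8, a core subunit of complex I, was at 94.9, 97.0, 99.4 and 106 CPM in flox and 137, 116 and 155 CPM in KO (log2 fold change 0.45, adjusted p = 0.362). Uqcrq of complex III was at 212 to 229 CPM in flox and 246 to 331 CPM in KO, and Atp5g1 of ATP synthase at 260 to 287 and 304 to 417 CPM. KO replicate 3 was the lowest KO library for all 3 genes and KO replicate 4 the highest. On chow the same list also had a median of 0.23.

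Fatty acid oxidation and the tricarboxylic acid cycle gave smaller counts. Among 36 genes that take up or oxidise fatty acids, 32 were positive, 4 were higher without overlap and none lower, with a median of 0.22. Pnpla2, the triglyceride lipase, was at 171 to 216 CPM in flox and 219 to 287 CPM in KO. Ucp3, the uncoupling protein of muscle, was at 134, 145, 137 and 270 CPM in flox and 326, 280 and 303 CPM in KO, with HFSC flox replicate 4 near the KO libraries. The other two were Angptl4, an inhibitor of lipoprotein lipase, and Ppara, the nuclear receptor of fatty acids (0.84 and 0.52). Ppargc1a, the coactivator of mitochondrial biogenesis, was at 53.1 to 58.7 CPM in flox and 58.7, 174 and 105 CPM in KO, so 1 KO library was at the flox level (log2 fold change 0.999, adjusted p = 0.259). Of 17 tricarboxylic acid cycle genes 2 were higher without overlap and none lower, and of 16 glycolytic genes 1 and 0.

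Insulin signalling genes had differences of both signs, and none passed the test. Irs1, an insulin receptor substrate, was at 38.2, 98.9, 45.6 and 36.04 CPM in flox and 29.6, 25.1 and 20.7 CPM in KO, lower without overlap (log2 fold change -1.12, adjusted p = 0.255). HFSC flox replicate 2 was far above the other flox libraries. Ptpn1, a phosphatase that dampens the insulin receptor, was at 23.1, 27.0, 23.95 and 26.1 CPM in flox and 34.3, 32.6 and 35.0 CPM in KO (0.44, adjusted p = 0.243). Akt1, the kinase downstream, was higher without overlap at 0.24. Srebf1, the transcription factor of lipid synthesis, was at 66.4, 77.3, 45.2 and 52.0 CPM in flox and 42.6, 38.0 and 33.9 CPM in KO (-0.66, adjusted p = 0.240).

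Adipocyte genes had higher values in KO. All 16 tested were positive, with a median of 0.61 and a range of 0.40 to 0.79 over the alternatives, and 2 did not overlap. Plin4, a lipid droplet coat protein also expressed in muscle fibres, was at 219, 201, 291 and 313 CPM in flox and 507, 447 and 568 CPM in KO (log2 fold change 0.99, adjusted p = 0.233). Lipe, hormone-sensitive lipase, was at 27.4, 28.3, 34.3 and 35.0 CPM in flox and 46.2, 39.2 and 62.1 CPM in KO. The summed adipocyte level, which includes Plin4, was 498 to 893 CPM in flox and 1029 to 1485 CPM in KO. The median log2 level of the members, relative to the mean of the HFSC libraries, overlapped between the groups. It was -0.79 to 0.21 in flox and 0.16 to 0.81 in KO. Adipoq, made by adipocytes alone, overlapped, at 7.24 to 19.3 CPM in flox and 14.8 to 30.7 CPM in KO. Ucp1, a marker of brown fat, had 51 reads in KO replicate 4 and 0 to 6 in the other 6 libraries. The part of fat carried along in the samples was not tested.

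Immediate early genes, which cells switch on within minutes of a stimulus or of handling, had lower values in KO for several members and varied among flox libraries. Of 34 tested, 5 were lower without overlap (Ccn1, Fosb, Egr1, Nr4a2 and Socs3), 1 was higher, and 24 were negative, with a median of -0.14. None passed the test. Egr1, a zinc finger transcription factor, was at 26.6, 29.1, 44.0 and 41.6 CPM in flox and 9.59, 13.8 and 6.72 CPM in KO (log2 fold change -1.82 ± 0.63 SE, adjusted p = 0.358). Fosb was at 4.66, 5.72, 23.5 and 33.5 CPM in flox and 3.26, 3.24 and 2.93 CPM in KO (-2.43, adjusted p = 0.272). HFSC flox replicates 3 and 4 carried most of that difference. Fos followed the same split within flox, at 28.5, 51.5, 243 and 246 CPM against 31.6, 13.5 and 38.7 CPM in KO, and its groups overlapped.

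Ccn1, a secreted matrix protein of the CCN family, was at 128, 150, 96.1 and 171 CPM in flox and 85.5, 72.6 and 63.6 CPM in KO (log2 fold change -0.88 ± 0.19 SE, adjusted p = 0.150). Socs3, an inhibitor of cytokine signalling, was at 11.6, 125, 17.0 and 11.7 CPM in flox and 7.88, 10.4 and 8.29 CPM in KO, so its fold change rested on HFSC flox replicate 2. Gadd45b, a stress sensor, was at 16.04, 11.6, 14.9 and 23.9 CPM in flox and 37.3, 24.1 and 39.5 CPM in KO (1.01, adjusted p = 0.255). Jun, Junb and Atf3 overlapped, with log2 fold changes of -0.15, -0.42 and 0.29. Of 14 heat shock genes 1 was higher without overlap and none lower, with a median of -0.04. The chow libraries of Fos, from 2.48 to 20.5 CPM, were all below the 4 HFSC flox libraries. Collection time and handling are not given in the labels, and their part in these values was not tested.

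**Figure D3:**
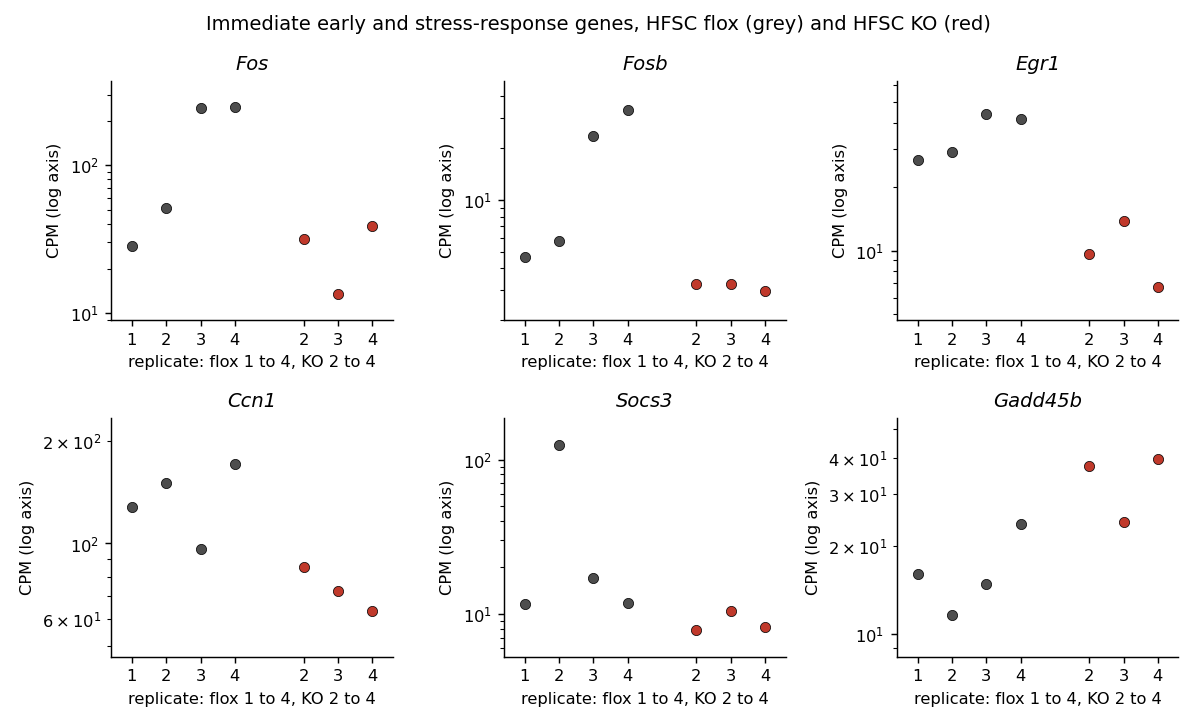
CPM (log axis) of 6 immediate early and stress-response genes in the 4 HFSC flox libraries (grey, replicates 1 to 4) and the 3 HFSC KO libraries (red, replicates 2 to 4). Fos and Fosb are high in HFSC flox replicates 3 and 4, Socs3 in HFSC flox replicate 2 at 125 CPM, and Egr1 and Ccn1 are lower in all 3 KO libraries.

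Genes of muscle protein breakdown had a positive median. Of 18 atrophy and autophagy genes 4 were higher without overlap and none lower, and the median was 0.36. Foxo1, the transcription factor that drives the programme, was at 35.99, 31.4, 35.5 and 54.4 CPM in flox and 75.3, 79.8 and 76.3 CPM in KO (log2 fold change 0.97, adjusted p = 0.259). Trim63, the ubiquitin ligase MuRF1, was at 279 to 527 CPM in flox and 565 to 957 CPM in KO, and Klf15 at 40.8 to 50.3 and 57.8 to 84.4 CPM. Foxo3 was the other without overlap, at 0.39. Fbxo32, the partner ligase, overlapped at -0.07. Clock genes showed differences of both signs: of 19, Per2 and Ciart were higher (0.77 and 1.09) and Hlf and Bhlhe41 lower (-1.08 and -0.37), all without overlap.

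Of the other genes with the smallest p, these were among the higher ones. Zbtb43, a zinc finger repressor, was at 17.2, 16.8, 18.9 and 18.03 CPM in flox and 25.6, 35.7 and 28.6 CPM in KO (log2 fold change 0.75, adjusted p = 0.0678). Usp54, of the deubiquitinase family, was at 8.41, 8.71, 10.5 and 12.2 CPM in flox and 21.9, 24.2 and 26.2 CPM in KO (1.27, adjusted p = 0.0678). Pkp4, a plakophilin of cell junctions, followed at 22.1 to 27.4 and 33.3 to 50.7 CPM (0.87, adjusted p = 0.0865). Agap2, Tinagl1, Trim66 and Cep85l differed by 1.21, 0.87, 1.75 and 1.46, with adjusted p-values of 0.127 to 0.132. Cep85l carries an 8-base miR-181 site, and Zbtb43 a 7-base one. Among the lower genes with the smallest p, Ccn1 and Slc7a2 each carry a 7-base site as well.

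The lower genes with the smallest p had adjusted p-values of 0.127 to 0.205. The first was mt-Nd3, treated below. Setbp1, a SET-binding protein, was at 23.5, 22.2, 18.6 and 21.7 CPM in flox and 14.1, 12.7 and 12.6 CPM in KO (log2 fold change -0.71). Exd2, an exonuclease, was at 41.0, 45.4, 51.7 and 43.4 CPM in flox and 32.1, 27.6 and 22.0 CPM in KO (-0.74). Zfp521, a zinc finger regulator of progenitor cells, was at 13.9 to 17.9 CPM in flox and 9.61 to 11.4 CPM in KO (-0.61). Slc7a2, a carrier of cationic amino acids, was at 62.2, 98.8, 72.2 and 67.0 CPM in flox and 44.4, 47.9 and 44.5 CPM in KO (-0.72). Xpo1, the nuclear export receptor, and Mrtfa, an actin-regulated coactivator, differed by -0.54 and -0.995, Zfp395 by -0.98, Ttyh2 by -0.997 and Tnk2 by -0.71.

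Markers of other cells gave few genes without overlap on this diet. Of 19 fibroblast and matrix genes 1 was lower without overlap and none higher, with a median of -0.32 and summed levels of 4733 to 7120 CPM in flox and 4231 to 5105 CPM in KO. The 21 monocyte and macrophage genes gave the same counts, a median of -0.33 and sums of 315 to 493 and 316 to 382 CPM. Lymphocyte genes summed to 8.05 to 9.88 CPM in flox and 4.76 to 7.75 CPM in KO, with 1 of 10 lower without overlap. Of 21 cell cycle genes 3 were lower without overlap and none higher (Mcm2, Mcm5 and Bub1). The median of the 21 genes was -0.29 with all libraries and -0.08 without HFSC flox replicate 4. Myh3 and Myh8, the embryonic and neonatal myosins of regenerating fibres, were at 256 and 502 CPM in KO replicate 3. In the other 6 libraries they were at 23.5 to 99.3 and 58.9 to 208 CPM.

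Sites for the deleted microRNA were searched in 3′ UTRs from GENCODE M21, taking the longest one per gene, as TGAATGT (7 bases) or TGAATGTA (8 bases). Loss of a microRNA is known to relieve its targets, which makes the direction of these genes the first question of such a knockout. Of 13938 genes with a 3′ UTR, the 878 with an 8-base site had a median log2 fold change of -0.07, the 1813 with only a 7-base site -0.04 and the 11247 with neither 0.02. All 3 genes that rose have no site. Genes with an 8-base site were higher without overlap in 5.35% and lower in 7.06%, against 8.39% and 4.55% of genes with no site. The 559 genes with 2 or more sites had a median of -0.09.

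Genes with sites have longer 3′ UTRs, with a median of 2841 bases for the 8-base class and 1127 bases for genes with no site, and the fold change followed that length. Among genes with no site the median was 0.08 for UTRs of up to 500 bases and -0.06 for UTRs over 4000 bases. Within each of the 5 length classes the genes with a site had a median below that of genes without, by the most in UTRs over 4000 bases (-0.10 against -0.06). Their UTRs were also longer in every class, with medians of 356 against 275 bases in the shortest class and 5407 against 4811 in the longest. The classes thus do not match length fully, and the part of length in these gaps was not tested. All of these median log2 fold changes are small beside the quartiles of all genes.

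**Figure D4:**
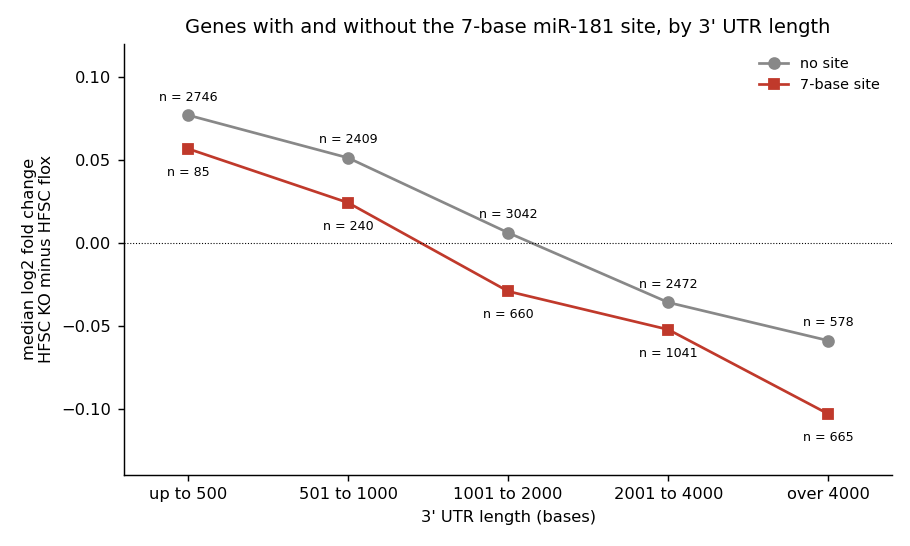
Median log2 fold change, HFSC KO minus HFSC flox, of genes with at least 1 miR-181 site of 7 bases (red squares) and with none (grey circles), in 5 classes of 3′ UTR length in bases, with the number of genes beside each point. Both lines descend with length, from 0.08 to -0.06 for genes with no site, and the red points lie under the grey ones in all 5 classes.

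Described targets of miR-181 had a median of 0.09 over 24 genes, with 3 higher and 1 lower without overlap. The higher ones were Sirt1, a deacetylase, Mcl1, which protects from cell death, and Hspa5, a chaperone of the endoplasmic reticulum (0.31, 0.21 and 0.09). Nlk, a kinase of the Wnt pathway, was at 14.3, 13.6, 10.2 and 11.5 CPM in flox and 9.31, 9.80 and 9.54 CPM in KO (-0.38, adjusted p = 0.342). Bcl2l11, the cell death protein Bim, has an 8-base site and was at 9.37 to 11.9 CPM in flox and 10.8, 18.5 and 16.6 CPM in KO. Prox1, a described target as well, overlapped at -0.14. Around the deleted locus, 51 genes within 5 Mb were tested: 3 were higher and 1 lower without overlap, with a median of -0.01. Ggta1, a glycosyltransferase in that interval, was at 9.52 to 12.7 CPM in flox and 14.9, 25.4 and 24.9 CPM in KO (0.98, adjusted p = 0.232).

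The largest fold among the named lower genes belonged to a stretch of the mitochondrial genome, and it did not follow the genotype label in every library. Over all 4 groups, mt-Nd3 (chromosome M, 9459 to 9806), a subunit of complex I, was at 52.7, 56.4, 37.1 and 2.41 CPM in HFSC flox replicates 1 to 4 and at 1.40, 1.38 and 1.61 CPM in HFSC KO. HFSC flox replicate 4 was thus near the KO libraries. The chow libraries were at 23.5, 23.0 and 44.4 CPM in flox and 1.40, 1.56 and 1.85 CPM in KO. With all libraries the log2 fold change on HFSC was -4.66 ± 0.82 (SE, adjusted p = 0.127), and mt-Nd3 was called in 2 of the 20 alternatives. Without HFSC flox replicate 4 the log2 fold change was -5.06, with an adjusted p of 1.93e-05 by edgeR's quasi-likelihood test. That library stands out by its mt-Nd3 value itself, so the p without it cannot serve as a test of this gene. The adjacent mt-Tg (9391 to 9458) had 0 CPM in all 6 KO libraries and in HFSC flox replicate 4, and 2.86 to 6.28 CPM in the other 6 flox libraries. Next to mt-Nd3, mt-Tr (9808 to 9875) was at 2.94, 3.70, 2.44 and 0.0633 CPM in HFSC flox and 0.0328 to 0.215 CPM in HFSC KO. At mt-Nd4l (9877 to 10173) HFSC flox replicate 4 was at 3.27 CPM, between the KO libraries (1.72 to 1.82) and the other flox libraries (4.39 to 6.69). Beyond them, mt-Nd4 was at 5336 to 6605 CPM in HFSC flox and 5642 to 7780 CPM in HFSC KO.

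A nuclear copy of mt-Nd3 mirrored it. Gm28438 (chromosome 1, 24612775 to 24613119, minus strand), annotated as an unprocessed pseudogene, was at 2.80, 1.32, 2.22 and 48.2 CPM in HFSC flox replicates 1 to 4 and at 48.5, 31.2 and 45.8 CPM in HFSC KO. On chow it was at 0.767 to 0.953 CPM in flox and 31.8 to 59.3 CPM in KO. The sum of the pair was 55.5, 57.8, 39.3 and 50.6 CPM in HFSC flox and 49.9, 32.5 and 47.4 CPM in HFSC KO, so the groups overlapped in the sum. In the GENCODE M21 transcripts the pair differs at 1 of 345 compared bases, T3C, counted from the first base of mt-Nd3, at position 9461 of chromosome M. The first 40 bases are shown because that base, in capitals, is the only letter by which the compared transcripts differ:
mt-Nd3: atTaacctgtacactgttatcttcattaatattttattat
Gm28438: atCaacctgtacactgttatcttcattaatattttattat
The reads were not analysed here, so which base each library carries was not determined, and the part of that base in the counts was not tested. The copies of mt-Nd4l, mt-Co2, mt-Co3 and mt-Atp6 in the same stretch of chromosome 1 have 0 differing bases. Those genes were at 1.72 to 18.9 CPM in the 7 libraries, beside 27278 to 45459 CPM for mt-Co1, so their counts are uncertain. Of the 13 mitochondrially encoded genes, 3 were lower without overlap (mt-Nd3, mt-Nd4l and mt-Co3) and none higher. The other 10 overlapped, among them mt-Cytb at 14035 to 16721 CPM in flox and 14708 to 21078 CPM in KO (log2 fold change 0.19), and mt-Nd2 at 8106 to 10998 and 6880 to 9367 CPM (-0.19).

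**Figure D5:**
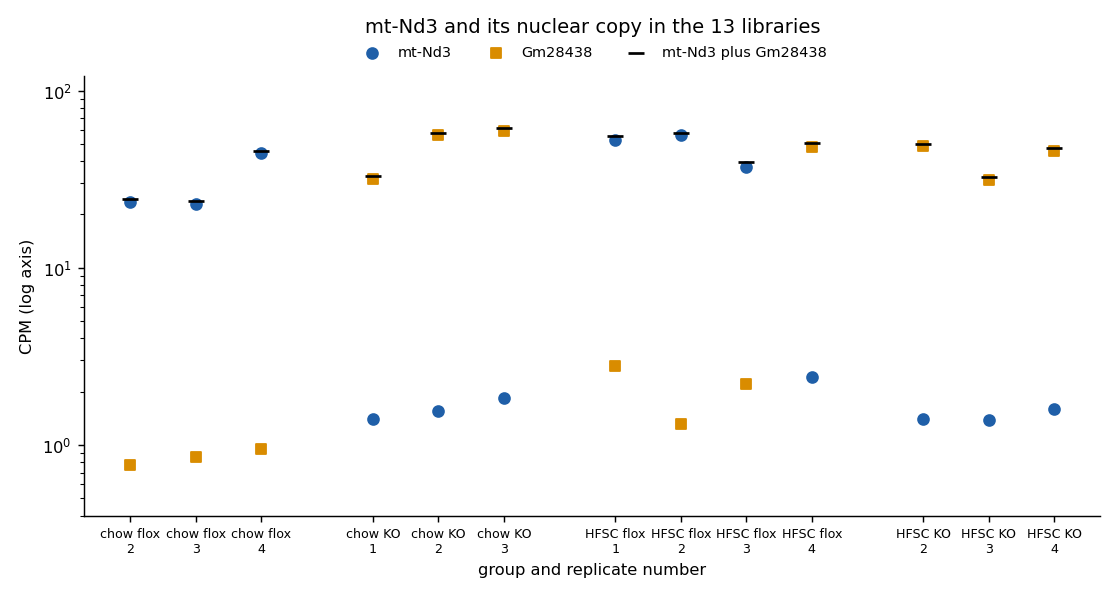
CPM (log axis) of mt-Nd3 (blue circles), of its nuclear copy Gm28438 (orange squares) and of their sum (black dashes) in the 13 libraries, ordered by group and replicate. In HFSC flox replicate 4 and in all 6 KO libraries the copy is high and mt-Nd3 is at 1.38 to 2.41 CPM, and in the other 6 flox libraries the order is reversed.

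Whether genotype had another effect on HFSC than on chow was tested by the interaction. No gene passed edgeR's quasi-likelihood test, which is 0% of genes tested, against 4811 genes at an unadjusted p under 0.05. The smallest adjusted p over all genes was 0.0625, and Hspa12b, Hba-a1, Myh6, Sox17, Hey1, Tnni3 and Fgf2 were among the genes with that value. The interaction for Sox17 was 1.60 ± 0.21 (SE) on the log2 scale, since KO was at 10.2 ± 1.56 CPM and flox at 16.3 ± 0.518 CPM on chow (SD, n = 3 each). That for Hspa12b was 0.94 ± 0.14 (SE), for Hba-a1 1.08 ± 0.24 (SE) and for Myh6 1.85 ± 0.41 (SE). The arterial list had a median of -0.69 on chow and 0.46 on HFSC, and the adipocyte list -0.52 and 0.61. On chow the fibroblast and macrophage lists had medians of -2.29 and -2.75, and their part in the interaction was not tested. The count depended on 1 chow library and on the tool: without chow flox replicate 4 it was 5928 genes, with DESeq2 1966 and with voom 7061.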

How the data were processed

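RNA sequencing counts of mouse skeletal muscle were analysed in 13 samples, of which 7 make the comparison. The authors deposited a table of raw read counts by Ensembl gene identifier. Tools named per the submitters' processing notes are Trimmomatic 0.36 for trimming, STAR 2.5.2b, and featureCounts from Subread 1.5.2, with GRCm38 as the build. How reads aligned to several places were counted, the strand setting and the annotation are not stated there, so overlapping, antisense and near-identical genes cannot be told apart. Of 49315 identifiers, 49056 were matched to GENCODE M21 symbols. No pair of HFSC replicates agreed within sampling noise.

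The main test was edgeR 4.0.16 (R 4.3.3) by quasi-likelihood, with 4 group means over all 13 libraries, TMM scaling and filterByExpr, and with Benjamini-Hochberg adjustment over 16496 genes at a threshold of 0.05. CPM values use TMM library sizes. "Without overlap" means that every KO library is above, or every one below, all flox libraries. Floors cover counting error only. SDs are of CPM between libraries, and SEs come from the quasi-likelihood fit, which includes the spread between libraries. The alternatives tried were relative log expression (RLE) size factors, library totals, no low-count filter, DESeq2 1.42.0, limma 3.58.1 voom with sample quality weights, only the HFSC groups, the replicate number as a block, and each library left out. Scripts were tested on simulated data.

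The comparison and the gene lists were chosen with earlier results of these data known. Genes were named by rule: all called genes, the 12 higher and 12 lower with the smallest p (mean of at least 1 CPM, no overlap, no predicted name), up to 4 members of each list with the smallest p, and all globin, mitochondrially encoded and CXCR4 axis genes. Further list members and Mybpc3, Nppa, Nppb, mt-Tg, mt-Tr and Gm28438 were chosen after their values were seen.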

Additional observations from a re-analysis of the deposited data

Results flagged for a closer look

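Within the 4 HFSC flox libraries, 1 library lay far from the other three for 8 of the 116 genes checked by Dixon's criterion. Chance alone marks about 1 group in 20 where genes are chosen without regard to their values. Many of the 116 genes were named for their values in these libraries, so that rate cannot judge the count. HFSC flox replicate 4 had Gm28438 at 48.2 CPM, against 1.32 to 2.80 CPM in the others, and Ucp3 at 270 CPM, against 134 to 145 CPM. HFSC flox replicate 2 had Socs3 at 125 CPM, against 11.6 to 17.0 CPM, and Irs1 at 98.9 CPM, against 36.04 to 45.6 CPM. HFSC flox replicate 1 had Myh3 at 99.3 CPM, against 33.8 to 43.6 CPM, and Myh8 at 208 CPM, against 82.7 to 100.3 CPM. The same library was low for Gja4, at 3.04 CPM against 3.85 to 3.95 CPM, and for Uqcrq, at 212 CPM against 229 CPM in each of the others.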

How the results depend on the processing

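Of the 3 calls, all higher in KO, RLE size factors gave 3. Scaling by library totals, fitting only the HFSC groups and adding a replicate block each gave 0 calls in total and 0 higher. Dropping the low-count filter gave 22 calls (18 higher, 4 lower) and 161 for the interaction. DESeq2 gave 165 (105 higher, 60 lower) and 1966, and voom with quality weights 33 (31 higher, 2 lower) and 7061. Leaving out 1 library at a time gave 0 to 20 calls, 0 to 18 higher and 0 to 5 lower, and 0 to 5928 for the interaction, which was 2 without HFSC flox replicate 4. The cause of these differences was not tested.

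Whether the replicate numbers pair the samples cannot be decided from so few pairs. Deviations of same-numbered flox and KO libraries correlated at 0.08, -0.02 and 0.07, and those of other flox and KO pairs at -0.13 to 0.0658. The replicate block took the smallest adjusted p of edgeR's quasi-likelihood test from 0.0347 to 0.0653. Some fold changes changed sign, among them those of Myh3 and Myh8, which were 0.999 and 0.80 with all libraries in the edgeR fit. With voom Myh3 was at -0.31, Myh8 at -0.47 and Vegfa at -0.0257, and with the replicate block Prox1 was at 0.0014. Over the libraries left out, Myh3 ranged from -0.59 to 1.48, Myh8 from -0.92 to 1.25, Vegfa from -0.0154 to 0.22, mt-Nd4 from -0.0128 to 0.23, Prox1 from -0.58 to 0.0843, Fbxo32 from -0.22 to 0.11 and Acta1 from -0.11 to 0.0622. Depth limits genes near the floor, among them Tnni3, Mybpc3 and the natriuretic peptide genes.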

Other observations

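Some gene groups not described above held genes whose libraries did not overlap on HFSC. Of 12 glycogen genes 1 was higher without overlap: Ppp1r3c, which targets a phosphatase to glycogen, was at 475, 358, 341 and 580 CPM in flox and 853, 616 and 1143 CPM in KO (log2 fold change 0.99, adjusted p = 0.536). In branched-chain amino acid breakdown 1 of 17 genes was higher and 1 lower. These were Bckdha, a subunit of the branched-chain ketoacid dehydrogenase, at 0.29 and Dbt, another subunit of the same complex, at -0.36. In fatty acid synthesis Dgat1, which completes triglycerides, was higher (0.36), and Scd2, a desaturase, and Srebf1 were lower (-0.54 and -0.66), all without overlap.

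Dsp, desmoplakin of cell junctions in skin and heart, was at 0.169, 0.101, 0.192 and 0.106 CPM in flox and 0.609, 1.57 and 0.965 CPM in KO (log2 fold change 2.84, adjusted p = 0.158). It separated the groups, while the keratinocyte genes Krt5 and Krt14 had 0 to 3 reads in the 7 libraries. Of the 2 keratinocyte genes tested, Dsp was 1, and the other was lower without overlap at -0.49. Hoxc10, a gene of hindlimb position, was at 63.0, 70.4, 58.5 and 54.9 CPM in flox and 48.6, 54.0 and 31.9 CPM in KO (-0.46, adjusted p = 0.505), the 1 of 11 limb position genes without overlap. Of 18 interferon response genes 1 was higher without overlap and none lower, and of 10 Schwann cell genes none separated the groups.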
